A study of Mus musculus with 12 samples.

Results

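The 41 genes described here encode scaffold, adhesion and associated signalling proteins of the postsynapse, mainly that of excitatory synapses. They were chosen by gene symbol from among the 24421 genes counted in each library. All 41 symbols were found, and all 41 were among the 15622 genes that passed the filter on low counts, with no fewer than 246 reads in any library. Their levels were measured by RNA sequencing of polyadenylated RNA taken from dorsal hippocampus. The mice were males of 129sv/C57BL/6j strain background and 4 to 5 months old. Each of the 12 libraries came from 1 animal, and each of 4 groups held 3 libraries: Mbnl2 KO after training, Mbnl2 KO house controls, Mbnl2 WT after training and Mbnl2 WT house controls. Mbnl2 encodes a muscleblind-like protein that binds RNA and regulates alternative splicing. The labels say nothing of the targeted allele, the training task or the time between training and dissection. Levels are given as CPM, the reads of a gene scaled to library size, with library sizes adjusted by the TMM method of edgeR.

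At an excitatory synapse, neurotransmitter receptors are held opposite the release site by a dense protein mesh, the postsynaptic density. MAGUK scaffolds bind receptors and adhesion proteins at the membrane, GKAP linkers join the MAGUKs to the deeper Shank and Homer layer, and that layer contacts the actin cytoskeleton. Neuroligins and LRRTM proteins reach across the cleft to presynaptic neurexins or heparan sulfate proteoglycans, and small-GTPase regulators in the density shape the dendritic spine. In hippocampal pyramidal neurons these proteins set how many AMPA receptors a synapse holds, which is why they are studied in learning.

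The gene-level count of Mbnl2 itself went against a loss of its transcript. Mbnl2 had 509, 473 and 542 CPM in KO-labelled trained mice, 488, 470.1 and 454 CPM in KO-labelled house controls, 360.4, 363 and 365 CPM in WT trained mice and 338, 315 and 324 CPM in WT house controls. Every KO-labelled library lay above every WT library, and the mean log2 fold change of KO over WT was 0.51 (SE 0.05) with an adjusted p of 0.00626 by edgeR's quasi-likelihood test. A count over the whole gene does not show whether part of it is deleted, so the libraries are called KO-labelled, and every direction given below rests on the labels. Total counts ran from 19737929 to 27427076 reads per library, where 3 reads are 0.152 to 0.109 CPM, and the 41 genes took between 1.203% and 1.898% of a library's reads. These limits cover counting error only. The hippocampal neuron markers chosen to check the tissue were all present (13 of 13), summing to 1197 to 1717 CPM in the KO-labelled trained, 985 to 1694 CPM in the KO-labelled house control, 1356 to 1517 CPM in the WT trained and 923 to 1488 CPM in the WT house control libraries.

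Transcripts of other tissue were also present, and unevenly. The 16 choroid plexus markers, all tested and none at 0 in any library, summed to 239 to 6738 CPM in the KO-labelled trained, 547 to 4436 CPM in the KO-labelled house control, 163 to 11857 CPM in the WT trained and 287 to 22863 CPM in the WT house control libraries. The 13 thalamus and habenula markers summed to 207 to 341 CPM in the KO-labelled trained, 240.0 to 691 CPM in the KO-labelled house control, 279 to 438 CPM in the WT trained and 320.4 to 712 CPM in the WT house control libraries, with Gbx2 at 0 in 1 library. The 14 striatum and septum markers, of which Isl1 was at 0 in 2 libraries, summed to 328 to 1752 CPM in the KO-labelled trained, 345 to 1319 CPM in the KO-labelled house control, 284 to 337 CPM in the WT trained and 316 to 1129 CPM in the WT house control libraries. The 12 oligodendrocyte markers summed to 3848 to 9092 CPM in the KO-labelled trained, 5707 to 14289 CPM in the KO-labelled house control, 2886 to 8244 CPM in the WT trained and 3332 to 12944 CPM in the WT house control libraries, with none at 0. Thalamus and habenula markers were highest in 3 house controls, at 691 CPM in KO-labelled library 3 and 595 and 712 CPM in WT libraries 2 and 3, and at most 438 CPM in the other libraries. Choroid plexus markers did not single out these 3: WT trained library 3, at 11857 CPM, lay above WT house control 2, at 11550.3 CPM, and KO-labelled trained library 2 (6738 CPM) and WT trained library 1 (5380 CPM) lay above KO-labelled house control 3 (4436 CPM). Each comparison below is also given without the 3 house controls, with these trained libraries kept. That leaves 1 WT house control, whose spread is then assumed to be like that of the other groups, and leptomeningeal fibroblast markers summed to 1487 CPM in it.

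Per kilobase of exon, the transcripts spanned a wide range of levels. Nrgn, which encodes neurogranin, a calmodulin-binding protein of dendrites, was highest at 959 CPM per kb (667 to 1139) over the 12 libraries, and its range lay apart from that of every other gene. Below it came Ppp1r9b at 327 CPM per kb (221 to 409), encoding spinophilin, which anchors protein phosphatase to spine actin, and Agap2 at 303 CPM per kb (199 to 385), an Arf-directed GTPase-activating protein. These ranges overlapped, and Ppp1r9b was above Agap2 in 11 of 12 libraries. Prkce, a protein kinase C isoform, and Dlgap3, a GKAP linker, followed at 165 CPM per kb (112 to 202) and 95.6 CPM per kb (74.5 to 121).

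At the other end, Lrrtm3 had the lowest level at 4.42 CPM per kb (2.64 to 9.75), then Nlgn1 at 6.83 CPM per kb (4.89 to 8.63) and Lrrtm4 at 8.797 CPM per kb (5.01 to 14.2). All 3 encode adhesion proteins of the synaptic cleft. Nlgn3 and Sipa1l2 stood next at 10.7 CPM per kb (7.41 to 13.5) and 10.9 CPM per kb (7.17 to 17.8). The other genes lay between these and Dlgap3, and apart from Nrgn each gene's range overlapped that of the next in order, so neighbours in the order did not differ beyond their spread over libraries, although within libraries some orders were steady. Agap2 was above Prkce, Prkce above Dlgap3 and Iqsec3 above Sipa1l3 in all 12 libraries, and Nlgn2 was above Dlgap1, Dlgap1 above Sipa1l1, Dlgap4 above Begain and Iqsec1 above Dlg2 in 11.

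**Figure D1:**
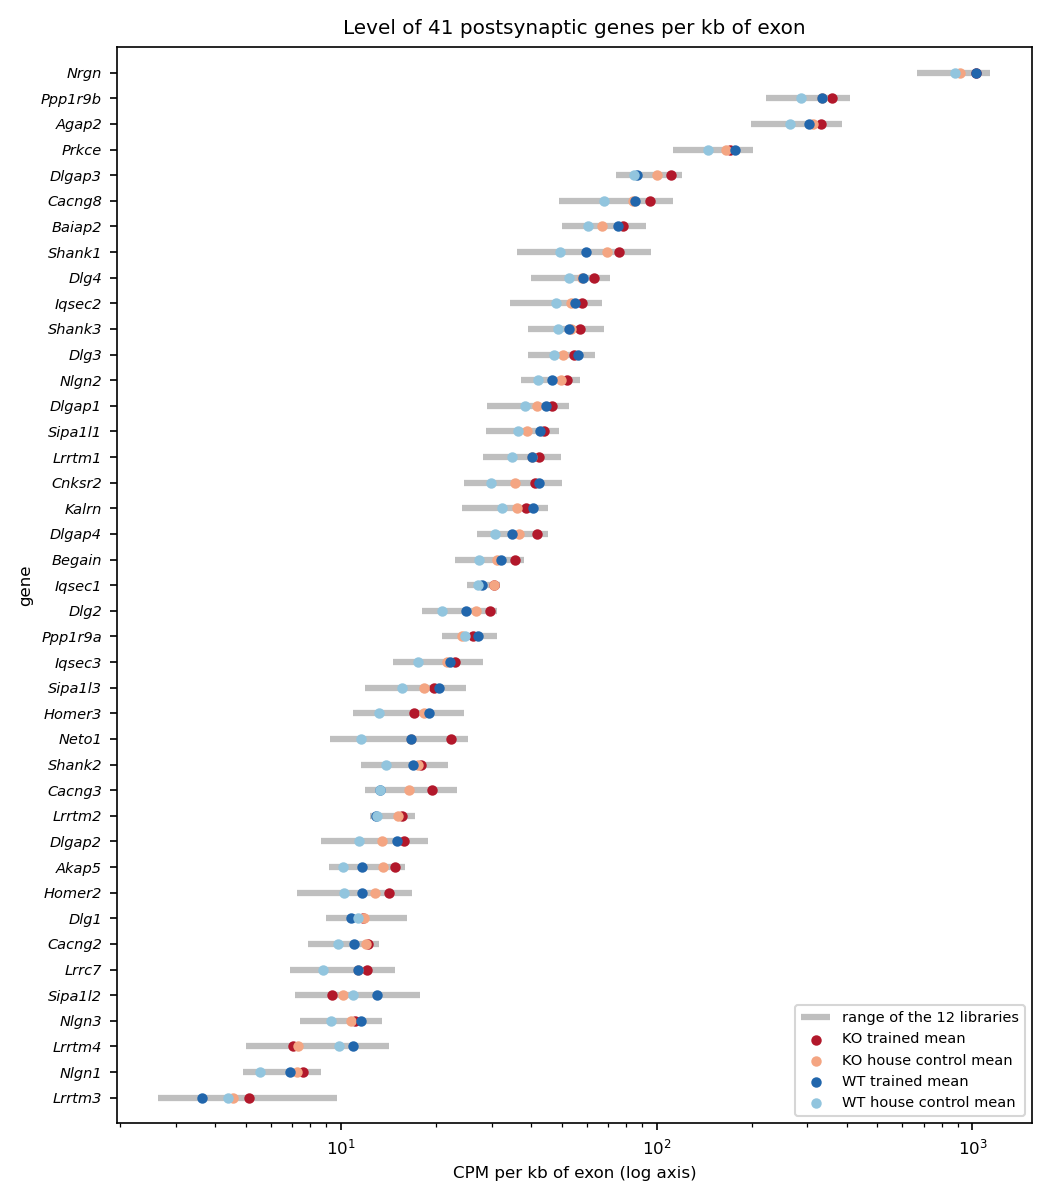
Level of each gene in CPM per kb of exon on a log axis, with coloured points for the means of the 4 groups (n = 3 each) and grey bars for the range of the 12 libraries. Nrgn stands apart at the top and Lrrtm3 has both the lowest mean and one of the widest ranges.

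Within families the levels were ordered, again per kilobase of exon. Here and above, the divisor was the union of exons over all annotated transcripts, which can far exceed a single transcript. It was 13251 bases for Dlg4 and 17890 for Dlgap1, whose longest coding transcripts have 6326 and 7173. For Dlgap3 these lengths were 4521 and 4207 bases. Orders by another length could differ and were not tested. Among the MAGUKs, Dlg4, which encodes PSD-95, was at 58.3 CPM per kb (39.9 to 71.1) and Dlg3, encoding SAP102, at 52.3 CPM per kb (39.1 to 63.6). Dlg2, encoding PSD-93, and Dlg1, encoding SAP97, were lower, at 25.6 CPM per kb (18.04 to 31.2) and 11.4 CPM per kb (8.99 to 16.2). Dlgap1 and Dlgap4 (42.8 CPM per kb (28.96 to 52.8) and 36.02 CPM per kb (27.04 to 45.2)) lay between Dlgap3 and Dlgap2, which was at 14.00 CPM per kb (8.64 to 18.9). Of the Shank scaffolds, Shank1 and Shank3 were at 63.7 CPM per kb (36.01 to 95.7) and 53.01 CPM per kb (39.1 to 68.1) and Shank2 at 16.6 CPM per kb (11.6 to 21.8). Homer3 and Homer2, adaptors that link Shank to metabotropic glutamate receptors, were at 16.9 CPM per kb (10.9 to 24.5) and 12.2 CPM per kb (7.27 to 16.8).

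The auxiliary subunits that escort AMPA receptors differed as well. Cacng8, encoding TARP gamma-8, the form abundant in hippocampus, was at 83.1 CPM per kb (48.98 to 112), well above Cacng3 at 15.7 CPM per kb (11.96 to 23.4) and Cacng2, encoding stargazin, at 11.3 CPM per kb (7.87 to 13.2). Neto1, which encodes an auxiliary subunit of kainate receptors, was at 16.8 CPM per kb (9.22 to 25.3). Nlgn2, the neuroligin found mainly at inhibitory synapses, was at 47.6 CPM per kb (37.2 to 57.1), above Nlgn3 and Nlgn1. Lrrtm1 and Lrrtm2, neurexin-binding proteins, were at 39.5 CPM per kb (28.1 to 49.8) and 14.2 CPM per kb (12.3 to 17.1). Akap5, encoding AKAP79/150, which holds protein kinase A and calcineurin at the synapse, was at 12.6 CPM per kb (9.15 to 15.9), and Ppp1r9a, encoding neurabin, at 25.6 CPM per kb (20.9 to 31.2).

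Of the genes for small-GTPase regulators, Iqsec2, an exchange factor for Arf proteins, had the highest level after Agap2 at 53.8 CPM per kb (34.4 to 67.4). Sipa1l1, whose SPAR protein acts on Rap, Cnksr2, a scaffold of Ras signalling, and Kalrn were close together at 40.4 CPM per kb (28.7 to 49.1), 37.2 CPM per kb (24.6 to 50.1) and 36.9 CPM per kb (24.2 to 45.3). Iqsec1, Iqsec3 and Sipa1l3 were at 29.1 CPM per kb (25.1 to 31.8), 21.1 CPM per kb (14.6 to 28.1) and 18.5 CPM per kb (11.9 to 24.95). Baiap2, whose IRSp53 protein bends membranes over actin, was at 70.6 CPM per kb (50.3 to 92.7), while Begain, a PSD-95 partner, and Lrrc7, encoding densin, were at 31.5 CPM per kb (22.9 to 38.04) and 10.9 CPM per kb (6.92 to 14.8).

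In many libraries most of the 41 genes went up or down together, within groups as well as between them. Each gene's log2 CPM was set against its own mean over the 12 libraries, and these deviations were averaged over the 41 genes. The average deviation was 0.29, -0.0047 and 0.10 in the KO-labelled trained libraries, 0.21, -0.08 and -0.07 in the KO-labelled house controls, 0.05, 0.18 and -0.10 in the WT trained libraries and 0.14, -0.30 and -0.43 in the WT house controls. The first KO-labelled trained library was highest and WT house controls 2 and 3 were lowest, and each pair of groups overlapped. In the first KO-labelled trained library 38 of 41 genes were above their own mean, in the first WT house control 33, and in WT house controls 2 and 3 2 each. The split was more even elsewhere, with 16 and 15 above in KO-labelled house controls 2 and 3 and 18 in KO-labelled trained library 2. Over all 15622 genes, between 47.8% and 52.5% were above their own mean in each library. The pooled within-group SD of the average deviation was 0.199 on the log2 scale.

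**Figure D2:**
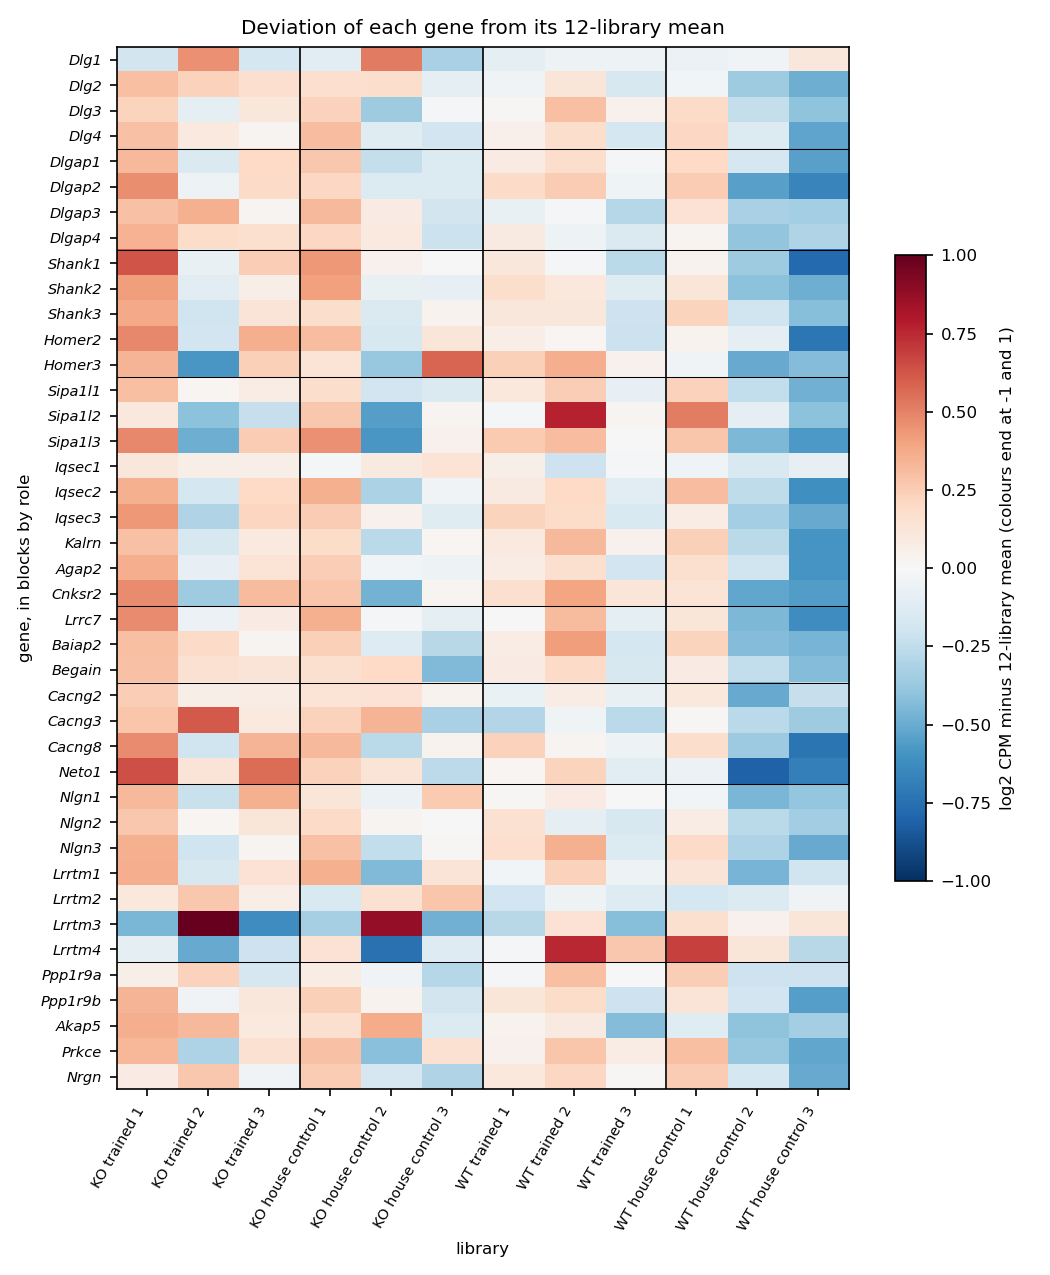
Each row is a gene, in blocks by role, and each column a library; colour gives log2 CPM minus the gene's 12-library mean, red above and blue below. WT house controls 2 and 3 are blue in nearly every row, the first KO-labelled trained library is red in 38 of 41 rows, and Lrrtm3 and Dlg1 are red in the second KO-labelled library of both treatments.

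Choroid plexus, thalamus and oligodendrocyte markers ran opposite to this average in the libraries at its extremes. Choroid plexus markers summed to 11550.3 and 22863 CPM in WT house controls 2 and 3, where the 41 genes were lowest, and to 239 CPM in the first KO-labelled trained library, where they were highest. Other libraries departed from this. The second KO-labelled house control had 547 CPM of choroid plexus markers, 14289 CPM of oligodendrocyte markers and an average deviation of -0.08. The first KO-labelled house control had 3346 CPM of choroid plexus markers at 0.21, and KO-labelled trained library 3 had 4396 CPM at 0.10. Oligodendrocyte markers were 12290.1 and 12944 CPM in WT house controls 2 and 3, against 3848 CPM in the first KO-labelled trained library. Thalamus and habenula markers were 595 and 712 CPM in the former and 243 CPM in the latter. The part of these tissue differences in the levels of the 41 genes was not tested. In bulk tissue, fewer cells of a type and less RNA per cell cannot be told apart.

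**Figure D3:**
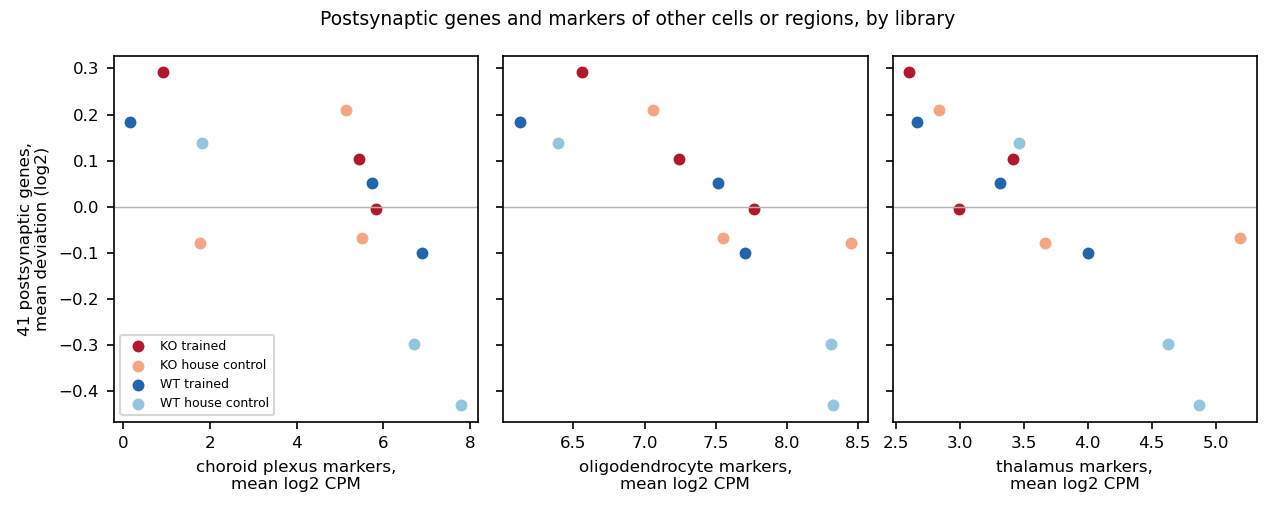
Average log2 deviation of the 41 genes (vertical axis) against the mean log2 CPM of choroid plexus, oligodendrocyte and thalamus markers (horizontal axes), 1 point per library, coloured by group. WT house controls 2 and 3 combine the lowest deviations, -0.30 and -0.43, with high values on all 3 marker axes.

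The genes also differed in how much they varied among replicates. The median within-group SD of log2 CPM was 0.27 for the 41 genes and 0.20 for all genes tested. Iqsec1 was steadiest, with an SD of 0.08, and Lrrtm3 varied most, with 0.66. Lrrtm3 had 12.6, 41.4 and 11.2 CPM in KO-labelled trained mice, 13.7, 31.8 and 12.4 CPM in KO-labelled house controls, 14.3, 19.1 and 12.9 CPM in WT trained mice and 19.3, 17.8 and 18.9 CPM in WT house controls. The second KO-labelled library of each treatment was the highest of all, while the other 4 KO-labelled libraries were at most 13.7 CPM and the WT libraries at least 12.9 CPM.

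Dlg1 was highest in the same libraries. It had 107, 166 and 107 CPM in KO-labelled trained mice, 112, 174 and 96.5 CPM in KO-labelled house controls, 113, 117 and 117 CPM in WT trained mice and 116, 118 and 131 CPM in WT house controls. Striatum and septum markers summed to 1752 CPM in the second KO-labelled trained library and 1319 CPM in the second KO-labelled house control, and to 1129 CPM in WT house control 3, where Dlg1 was also above the other WT libraries and Lrrtm3 was not. In the remaining libraries they were at most 386 CPM. Without the second KO-labelled library of both treatments, the mean log2 fold change of KO over WT was -0.43 (SE 0.11) for Lrrtm3 and -0.16 (SE 0.06) for Dlg1, against 0.27 (SE 0.35) and 0.10 (SE 0.15) with all libraries. The part of striatal or septal tissue in these values was not tested.

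Averaged over both treatments, 38 of the 41 genes had a higher level in KO-labelled than in WT libraries, with a median log2 fold change of 0.16, while over all genes tested 48.0% were higher and the median was -0.01. No gene of the 41 passed an adjusted p of 0.05 by edgeR's quasi-likelihood test, where 0.576% of all genes tested did. At an unadjusted p under 0.05, 12 were higher and 1 was lower, which is 31.7% of the 41 against a background of 14.4% (8.54% higher and 5.89% lower). These counts varied with single libraries: they were 5 higher and 1 lower without KO-labelled trained library 1 (background 11.9%), 6 and 1 without KO-labelled house control 1 (13.99%) or WT trained library 3 (10.5%), and 18 and 0 without WT house control 1 (19.3%). The 6 libraries of a genotype overlapped with the 6 of the other for every one of the 41, where 1.78% of all genes did not. DESeq2 called 4 of them higher and 0 lower (background 5.04%, of which higher 3.56%): Akap5, Dlg2, Lrrtm2 and Cacng3. The 3 genes with a lower mean in KO-labelled libraries were Lrrtm4, Sipa1l2 and Ppp1r9a. Without the 3 house controls rich in choroid plexus or thalamus transcripts, the median was 0.04 and 23 of 41 were higher, with 6 higher and 1 lower at an unadjusted p under 0.05 (10.3%). Animal numbers form a series of 8 libraries, 2 in each group, and a later one of 4. Within the first the median was 0.09 with 28 of 41 higher and 5 higher and 1 lower at an unadjusted p under 0.05 (7.82%), with the series as a covariate it was 0.17 with 38 higher, and the second series has 1 library in each group and was not fitted alone. The 14 leptomeningeal fibroblast and 16 choroid plexus markers all had lower means in KO-labelled libraries, with median log2 fold changes of -0.90 and -1.36, and 13 of 14 striatum and septum markers had higher ones, with a median of 1.00; their part in these values was not tested.

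The smallest p belonged to Akap5. It had 109, 105 and 89.95 CPM in KO-labelled trained mice, 93.98, 109 and 76.6 CPM in KO-labelled house controls, 86.3, 89.6 and 62.5 CPM in WT trained mice and 77.5, 63.8 and 66.5 CPM in WT house controls. The trained groups did not overlap, and the house controls overlapped only through KO-labelled library 3. The mean log2 fold change of KO over WT was 0.39 (SE 0.11), with an adjusted p of 0.156 by edgeR and 0.0319 by DESeq2, and it was 0.37 (SE 0.13) without the 3 house controls named above. Dlg2 had 508, 483 and 462 CPM in KO-labelled trained mice, 462, 465 and 386 CPM in KO-labelled house controls, 403, 447 and 368 CPM in WT trained mice and 405, 322 and 294 CPM in WT house controls. Its trained groups did not overlap either, and its log2 fold change was 0.31 (SE 0.09) (adjusted p 0.162 by edgeR, 0.0252 by DESeq2), or 0.22 (SE 0.08) without the 3 house controls.

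Lrrtm2 had 91.3, 102 and 89.2 CPM in KO-labelled trained mice, 76.7, 94.5 and 103 CPM in KO-labelled house controls, 74.4, 81.9 and 77.7 CPM in WT trained mice and 75.3, 77.1 and 82.98 CPM in WT house controls. Only the first KO-labelled house control fell within the WT range. The log2 fold change was 0.25 (SE 0.07), with adjusted p-values of 0.165 by edgeR and 0.0447 by DESeq2, and 0.23 (SE 0.09) without the 3 house controls. Its exons share 95 bases with Ctnna1 on the opposite strand, and whether strand was used in counting is not stated by those sources that were read. Cacng3 had 51.4, 65.01 and 45.4 CPM in KO-labelled trained mice, 49.9, 53.7 and 33.9 CPM in KO-labelled house controls, 34.6, 41.2 and 35.2 CPM in WT trained mice and 42.7, 35.3 and 33.2 CPM in WT house controls. The third KO-labelled house control lay among the WT libraries, and the second KO-labelled library was the highest in each treatment. Its log2 fold change was 0.42 (SE 0.13) (adjusted p 0.173 by edgeR, 0.0432 by DESeq2), 0.41 (SE 0.13) without the 3 house controls and 0.29 (SE 0.12) without the second KO-labelled library of both treatments.

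Neto1 had 212, 148 and 199 CPM in KO-labelled trained mice, 158, 148 and 113 CPM in KO-labelled house controls, 137, 158 and 125 CPM in WT trained mice and 130.0, 77.04 and 84.01 CPM in WT house controls. KO-labelled trained libraries 1 and 3 were above all others, and WT house controls 2 and 3 were below all others. The log2 fold change of KO over WT was 0.47 (SE 0.15), adjusted p 0.193 by edgeR and 0.0522 by DESeq2. Shank1 had 1007, 617 and 772 CPM in KO-labelled trained mice, 879, 669 and 649 CPM in KO-labelled house controls, 702, 644 and 538 CPM in WT trained mice and 668, 509 and 379 CPM in WT house controls. The groups overlapped in both treatments, with a log2 fold change of 0.42 (SE 0.16) and an adjusted p of 0.271 by edgeR. Without the 3 house controls the log2 fold change was 0.32 (SE 0.13) for Neto1 and 0.28 (SE 0.18) for Shank1. Shank1 shares 339 exon bases with 1700008O03Rik on the opposite strand.

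Dlgap4 had 382, 342 and 337 CPM in KO-labelled trained mice, 348, 323 and 259 CPM in KO-labelled house controls, 319.9, 291 and 272 CPM in WT trained mice and 306, 228 and 244 CPM in WT house controls. The trained groups did not overlap, and the log2 fold change was 0.26 (SE 0.10), adjusted p 0.249 by edgeR, or 0.20 (SE 0.08) without the 3 house controls. Lrrtm4, whose protein binds heparan sulfate proteoglycans and is prominent in dentate granule cells, had the largest log2 fold change in the other direction. Its levels were 48.4, 36.5 and 44.9 CPM in KO-labelled trained mice, 57.1, 30.8 and 47.5 CPM in KO-labelled house controls, 51.4, 87.4 and 62.5 CPM in WT trained mice and 83.2, 56.3 and 42.8 CPM in WT house controls. The trained groups did not overlap, with all KO-labelled libraries lower, while the house controls did. Its log2 fold change was -0.53 (SE 0.20), adjusted p 0.266 by edgeR, -0.78 (SE 0.24) without the 3 house controls and -0.36 (SE 0.20) without the second KO-labelled library of both treatments. The 12 tested of 13 dentate granule neuron markers also had lower means in KO-labelled libraries, all 12 with a median log2 fold change of -0.42 and none past the adjusted threshold, and their summed level was 586 to 1125 CPM in the KO-labelled trained, 528 to 1316 CPM in the KO-labelled house control, 1016 to 1815 CPM in the WT trained and 769 to 1647 CPM in the WT house control libraries. The 8 CA1 pyramidal neuron markers all had higher means, with a median of 0.64. The part of these cell types in the values of Lrrtm4 and the other genes was not tested.

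**Figure D4:**
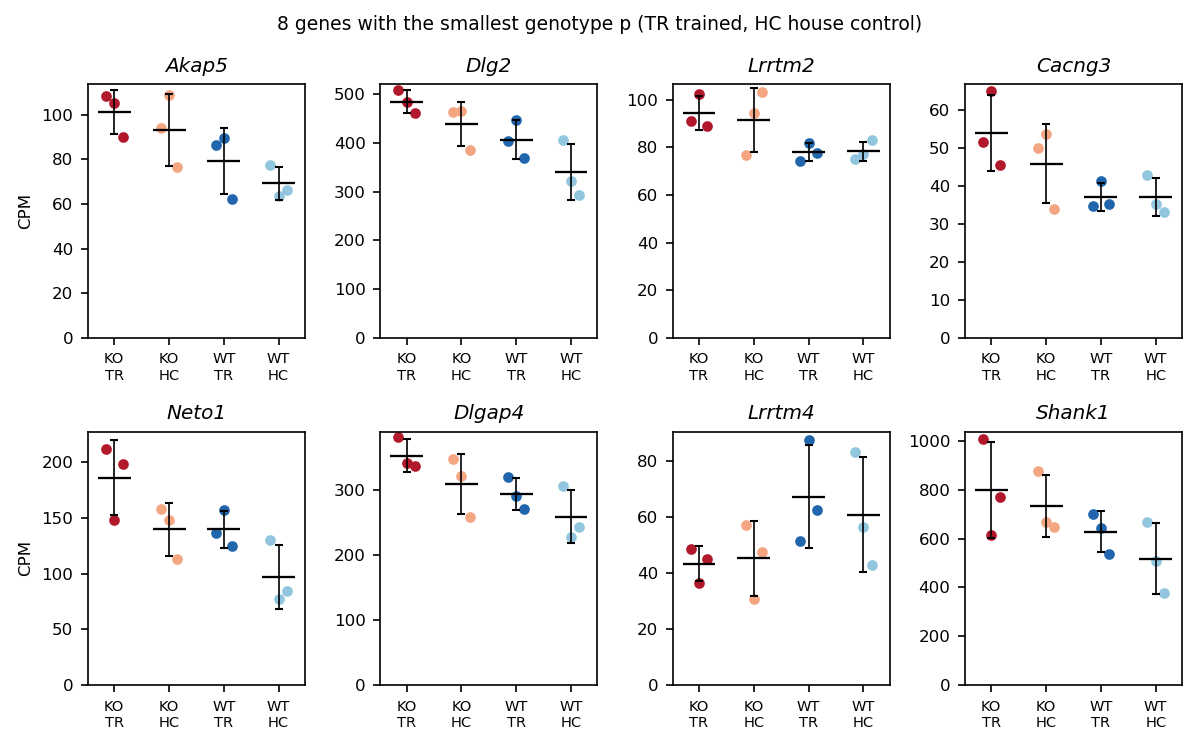
CPM in each library for the 8 genes with the smallest genotype p, by group, with the mean (bar) and SD (n = 3). Lrrtm4 is the only one of the 8 with lower means in the KO-labelled (KO) than in the WT libraries of both treatments.

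By role, the 4 receptor auxiliary subunits had the largest median difference, a log2 fold change of 0.33. Where 48.0% of all genes tested were higher and 14.4% had an unadjusted p under 0.05 by edgeR, 4 of these 4 were higher and 3 had such a p. Beside Cacng3 and Neto1 this was Cacng2, with a log2 fold change of 0.22 (SE 0.09) that was 0.09 (SE 0.07) without the 3 house controls, and Cacng8 had 0.23 (SE 0.17). The Shank and Homer genes (5 of 5 higher) and the GKAP linkers (4 of 4 higher) had medians of 0.21 and 0.21. The adhesion genes had a median of 0.21 with 6 of 7 higher, among them Nlgn1 at 0.27 (SE 0.11), Nlgn2 at 0.21 (SE 0.09) and Lrrtm2. Medians were 0.17 for the other PSD-95 partners, 0.11 for the MAGUKs, 0.10 for the small-GTPase regulators and 0.07 for the kinase, phosphatase and calmodulin adaptors. Nrgn, the most abundant, had 0.03 (SE 0.14), and Prkce 0.07 (SE 0.18). None of these differences passed the adjusted threshold by edgeR.

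Within the house controls alone, 38 of 41 genes were higher in KO-labelled libraries, with a median log2 fold change of 0.22 against -0.00079 for all genes tested. None of the 41 passed the adjusted threshold by edgeR (background 0.0128%), by DESeq2 (1.69%) or in the authors' deposited table (0.558%). At an unadjusted p under 0.05, 5 were higher and 0 lower, with a background of 10.7%, and only Iqsec1 did not overlap between the groups (background 13%). The 5 were Dlg2, Akap5, Neto1, Nlgn1 and Cacng2. Nlgn1, whose neuroligin binds presynaptic neurexins, had 98.1, 86.5 and 108 CPM in the KO-labelled house control libraries, against 88.5, 65.7 and 69.1 CPM in the WT house control libraries. WT library 1 lay within the KO-labelled range and WT libraries 2 and 3 below it, and the log2 fold change was 0.39 (SE 0.16) with an adjusted p of 0.437 by edgeR. For Cacng2 the values were 67.7, 68.2 and 63.1 CPM in the KO-labelled house control libraries, against 66.2, 43.4 and 52.6 CPM in the WT house control libraries, again with WT library 1 within the KO-labelled range and WT libraries 2 and 3 below it, and a log2 fold change of 0.30 (SE 0.13), adjusted p 0.463 by edgeR. Iqsec1 had 333, 358 and 369 CPM in the KO-labelled house control libraries, against 326, 303 and 318 CPM in the WT house control libraries, a narrow but separate pair of ranges with a log2 fold change of 0.16 (SE 0.08), adjusted p 0.502 by edgeR.

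The median within house controls changed with single libraries. Without WT libraries 2 and 3 and KO-labelled library 3, the median was -0.04 and 20 of 41 genes were higher, and log2 fold changes were 0.39 (SE 0.22) for Akap5, 0.06 (SE 0.23) for Nlgn1 and -0.92 (SE 0.39) for Lrrtm4. Without WT library 1, in which choroid plexus markers were lowest of the 3, the median was 0.42 and 16 genes had an unadjusted p under 0.05 (background 19.04%). That count was 1 without WT library 2 (6.93%), 1 without WT library 3 (6.92%), 2 without KO-labelled library 1 (9.22%), 3 without KO-labelled library 2 (9.21%) and 7 without KO-labelled library 3 (10.1%), and 2 when the 6 house controls were fitted alone (7.26%). Markers of vessels and meninges separated the groups. The 14 leptomeningeal fibroblast markers all had lower means in the KO-labelled house controls, with a median log2 fold change of -1.64 and 5 at an unadjusted p under 0.05, and summed to 232 to 751 CPM in KO-labelled and 1430 to 2039 CPM in WT house controls. Of 10 endothelial and mural cell markers 9 were lower, 5 of them at an unadjusted p under 0.05, with sums of 255 to 271 CPM in KO-labelled and 287 to 357 CPM in WT house controls. None of these markers was at 0 in any library. The part of choroid plexus, thalamus, meningeal and vascular tissue in the median was not tested.

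Between the trained groups, 30 of 41 genes were higher in KO-labelled libraries and the median log2 fold change was 0.10, against -0.01 for all genes tested. Again 0 of 41 passed the adjusted threshold by edgeR (background 0.0128%), by DESeq2 (0.752%) or in the authors' deposited table (0.834%), and 2 were higher at an unadjusted p under 0.05 (6.45%). The 2 were Cacng3 and Lrrtm2. This count varied with the fit: it was 6 higher and 1 lower with the 6 trained libraries fitted alone (7.46%), 6 and 1 without WT house control 1 (7.45%), 6 and 0 without KO-labelled house control 3 (6.62%) or with the animal-number series as a covariate (7.14%), and 5 and 1 by DESeq2 (7.35%). Without the 3 house controls, which bear on this comparison only through the filter, the scaling and the shared estimate of spread, it was 7 and 1 (6.74%), with a median of 0.10 and 30 of 41 higher. The ranges of the groups were separate for 7 genes (background 14%): Akap5, Cacng3, Dlg2, Dlgap3, Dlgap4 and Lrrtm2, higher in KO-labelled libraries, and Lrrtm4, lower. For Cacng3 the log2 fold change was 0.54 (SE 0.18) (adjusted p 0.632 by edgeR), and in the authors' deposited table its adjusted p was 0.0982, the smallest of the 41 there. Lrrtm2 had 0.27 (SE 0.10), Akap5 0.35 (SE 0.16) and Lrrtm4 -0.63 (SE 0.29). Dlgap3 had 523, 545 and 434 CPM in the KO-labelled trained libraries, against 405, 421 and 349 CPM in the WT trained libraries, and its log2 fold change was 0.35 (SE 0.17) with an adjusted p of 0.787 by edgeR. The trained median depended on single libraries: it was -0.0042 with 20 genes higher without KO-labelled library 1 and 0.0091 without WT library 3, and 0.20 without KO-labelled library 2. CA1 pyramidal neuron markers separated the trained groups, with sums of 822 to 888 CPM in KO-labelled and 352 to 688 CPM in WT trained libraries, 8 of 8 higher means, a median log2 fold change of 0.81 and 4 at an unadjusted p under 0.05. Of 14 striatum and septum markers 13 had higher means, with a median of 1.79, and 12 of 12 dentate granule neuron markers had lower ones, with a median of -0.53. The part of these tissues in the values was not tested.

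After training, averaged over both genotypes, 39 of 41 genes had a higher level than in house controls. The median log2 fold change was 0.17, while 47.7% of all genes tested were higher and their median was -0.01. By edgeR 0 of 41 passed the adjusted threshold, as did 0% of all genes tested, and 1 gene, Neto1, had an unadjusted p under 0.05 (background 11.2%). By DESeq2 0 of 41 passed (0.442%), with 2 genes at an unadjusted p under 0.05. Ranges of the 6 trained and 6 house control libraries overlapped for all 41 (background 0.486%). The exceptions to the direction were Dlg1 at -0.04 (SE 0.15) and Lrrtm3 at -0.05 (SE 0.35). Without the 3 house controls rich in choroid plexus or thalamus transcripts, the median was -0.0068 and 19 of 41 genes were higher. Within the first series of animal numbers the median was 0.13 with 39 of 41 higher, and with the series as a covariate 0.17 with 39. In that first series every house control had a lower animal number than every trained mouse. Training and animal number cannot be told apart within it. Without WT house control 1, 17 genes had an unadjusted p under 0.05 (background 23.3%) and the median was 0.27. Without KO-labelled trained library 2 this count was 5 (15.5%), and without KO-labelled house control 1 it was 4 (14.1%), both shares of the 41 below the background. All 12 oligodendrocyte markers and 12 of 13 thalamus and habenula markers had lower means after training, with median log2 fold changes of -0.59 and -1.27, and 0 and 6 of them had an unadjusted p under 0.05. Means were also lower after training for 10 of 10 astrocyte markers (median -0.29, 6 at such a p), 10 of 10 endothelial and mural cell markers (-0.29, 7), 9 of 10 microglia markers (-0.20, 5), 13 of 14 leptomeningeal fibroblast markers (-0.78, 2), 13 of 14 striatum and septum markers (-0.64, 0) and 16 of 16 choroid plexus markers (-0.35, 0). Endothelial and mural cell markers summed to 218 to 252 CPM in the trained and 255 to 357 CPM in the house control libraries. Of the hippocampal neuron markers, 12 of 13 had higher means after training, with a median log2 fold change of 0.22. CA1 pyramidal neuron markers had 8 of 8 higher (0.27), CA2 and CA3 markers 5 of 8 (0.13) and dentate granule neuron markers 9 of 12 (0.04). Neocortex markers had 7 of 13 higher (0.13) and inhibitory interneuron markers 5 of 11 (-0.02). The part of these cell types in the levels of the 41 genes was not tested.

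For Neto1, the per-library values given above put all 3 KO-labelled trained libraries above KO-labelled house control 3 and all 3 WT trained libraries above WT house controls 2 and 3. The log2 fold change of trained over house control was 0.47 (SE 0.15), with an adjusted p of 0.414 by edgeR, and 0.20 (SE 0.13) without the 3 house controls. Cnksr2 had 464, 262 and 417 CPM in KO-labelled trained mice, 405, 242 and 341 CPM in KO-labelled house controls, 375, 439 and 365 CPM in WT trained mice and 368, 234 and 228 CPM in WT house controls. The second KO-labelled library was the lowest of its group in both treatments, and the log2 fold change of training was 0.36 (SE 0.18). Among the WT libraries, the low values of Cnksr2 were those of house controls 2 and 3, at 234 and 228 CPM. Dlgap2 had 116, 81.4 and 95.9 CPM in KO-labelled trained mice, 97.3, 76.3 and 76.3 CPM in KO-labelled house controls, 96.2, 100.5 and 81.8 CPM in WT trained mice and 100.3, 57.7 and 53.1 CPM in WT house controls. Its low values were WT house controls 2 and 3, and the log2 fold change was 0.32 (SE 0.16), or 0.03 (SE 0.14) without the 3 house controls. Dlg2 had 0.20 (SE 0.09) and Dlgap4 0.19 (SE 0.10), both with overlapping groups. Adjusted p-values by edgeR for these 4 were between 0.445 and 0.457.

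**Figure D5:**
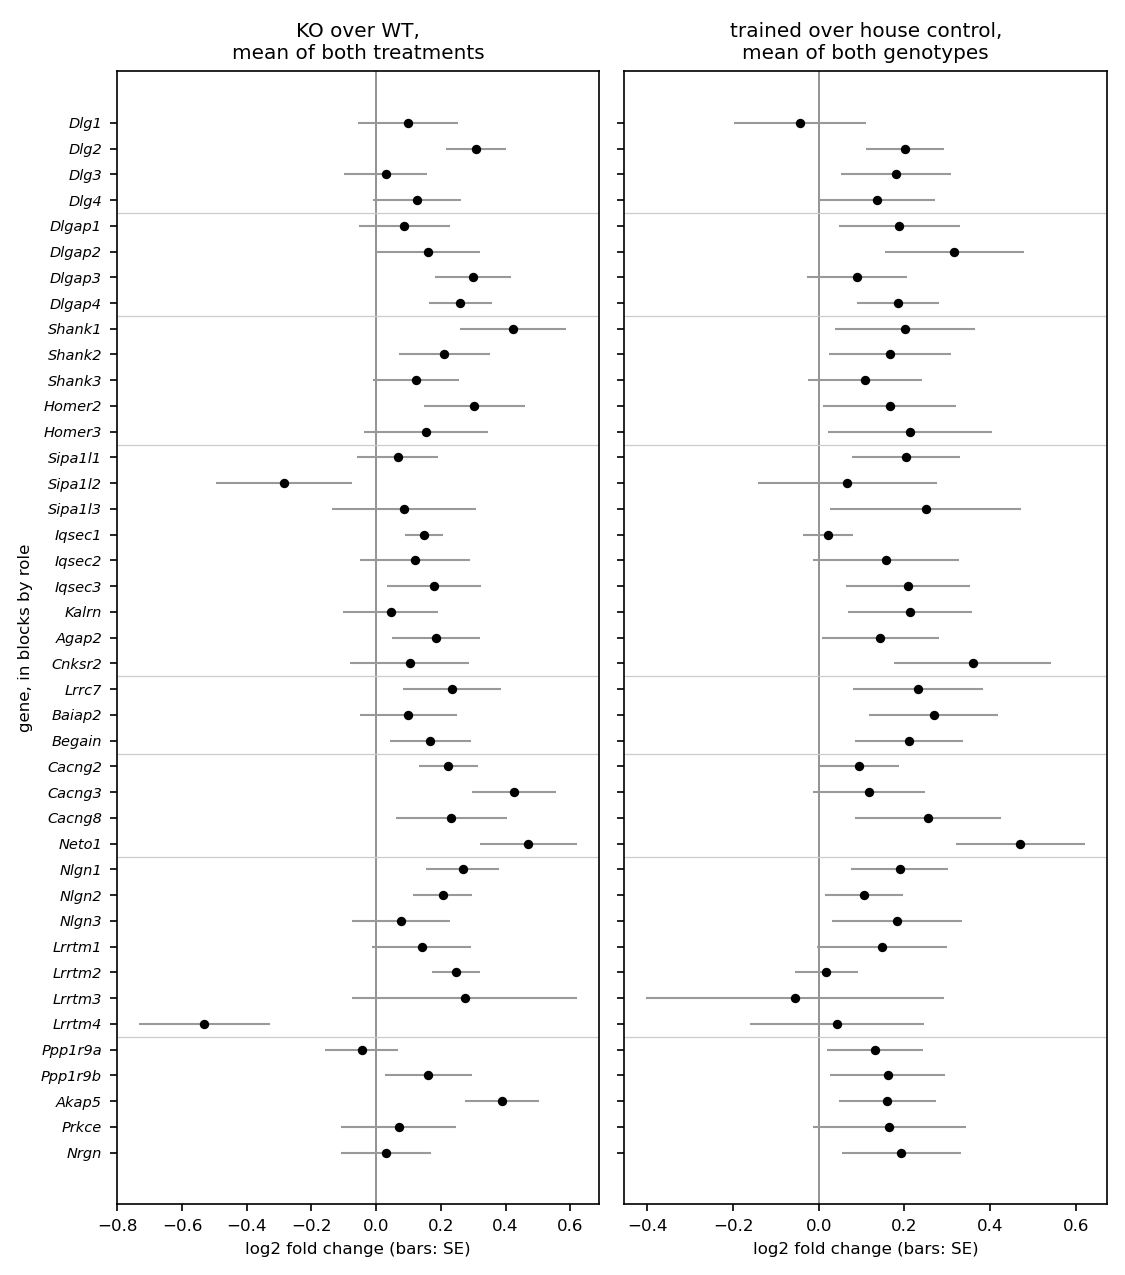
Log2 fold change of each gene, in blocks by role, for KO over WT averaged over both treatments (left) and trained over house control averaged over both genotypes (right); bars are the SE and the vertical line marks no difference. Points lie to the right of the line for 38 of 41 genes on the left and 39 of 41 on the right, and Lrrtm4 and Sipa1l2 lie farthest to the left in the genotype comparison.

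Within the KO-labelled mice, 37 of 41 genes were higher after training with a median log2 fold change of 0.11, and the median of all genes tested was -0.0031. By edgeR 0 of 41 passed the adjusted threshold (background 0%) and 0 had an unadjusted p under 0.05 (background 3.01%), and 0 passed by DESeq2 (0.0449%) or in the authors' deposited table (0.0716%). Ranges overlapped for all 41 (background 7.88%). The smallest p-values were those of Neto1 at 0.42 (SE 0.21), Dlgap4 at 0.19 (SE 0.14), Cacng3 at 0.24 (SE 0.18) and Dlg2 at 0.15 (SE 0.13). The median rested on single libraries: without KO-labelled trained library 1 it was 0.0095 with 21 of 41 higher, without KO-labelled house control 2 it was 0.05 with 29 higher, and without KO-labelled house control 1 or KO-labelled trained library 2 it was 0.22 and 0.20. It was 0.06 with 35 higher without the 3 house controls, of which 1 is KO-labelled. Within the WT mice, 37 of 41 were also higher after training, with a median of 0.22. By edgeR 0 passed the adjusted threshold (background 0%), 1 had an unadjusted p under 0.05 (9.82%), and 0 passed by DESeq2 (0.121%) or in the authors' deposited table (0.117%).

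In the WT mice the ranges were separate for Homer3 and Nlgn1, both higher after training (background 14.8%). Homer3 had 66.4, 72.5 and 58.1 CPM in the WT trained libraries, against 54.8, 39.6 and 41.6 CPM in the WT house control libraries, and its log2 fold change was 0.53 (SE 0.27) with an adjusted p of 0.503 by edgeR. In the authors' deposited table its adjusted p was 0.227, the smallest of the 41. Its exons overlap Ddx49 on the opposite strand over 874 bases, so reads of Homer3 and Ddx49 may not be told apart. For Nlgn1 the log2 fold change was 0.31 (SE 0.16), for Neto1 0.53 (SE 0.21) and for Dlg2 0.26 (SE 0.13). Without the 3 house controls, of which 2 are WT, the median of the 41 in WT mice was -0.08 with 8 higher, and Homer3 had 0.26 (SE 0.36) and Nlgn1 0.07 (SE 0.21). Without WT house control 1 the median was 0.44 and 23 genes had an unadjusted p under 0.05 (background 24.9%), and without any other single library this count was 0 to 4. The genotype comparison in house controls and the training comparison in WT mice share these 3 WT house controls.

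The difference between the training effects, KO-labelled minus WT, was negative for 35 of 41 genes with a median of -0.11 on the log2 scale, where the median of all genes tested was -0.01. By edgeR 0 of 41 passed the adjusted threshold (background 0%) and 0 had an unadjusted p under 0.05 (background 1.5%), and by DESeq2 0 passed (0%). Homer3 had the smallest p, with a difference of -0.64 (SE 0.38). It had 71.4, 37.6 and 66.3 CPM in KO-labelled trained libraries and 61.8, 43.2 and 84.1 CPM in KO-labelled house controls, so that the KO-labelled groups overlapped over most of their range. The differences were -0.25 (SE 0.23) for Nlgn1, -0.28 (SE 0.30) for Lrrc7 and -0.28 (SE 0.30) for Nlgn3. Leaving out the 3 house controls, the median was 0.18 with 37 of 41 positive, and Nlgn1, Lrrc7 and Nlgn3 were at 0.08, 0.03 and 0.08, so the sign of the difference turned with these libraries.

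Genes that work beside these 41 were taken from 5 further lists, and 0 of their members passed the adjusted threshold by edgeR in either mean comparison. Presynaptic partners of the adhesion proteins had 9 of 10 genes higher in KO-labelled libraries (median log2 fold change 0.23, 3 at an unadjusted p under 0.05, where 14.4% of all genes tested had one), led by the neurexin gene Nrxn3 at 0.27 (SE 0.09, adjusted p 0.221), the cerebellin gene Cbln4 at 0.38 (SE 0.14, adjusted p 0.252) and the receptor phosphatase gene Ptprs at 0.25 (SE 0.10, adjusted p 0.301). Other postsynaptic adhesion genes had 26 of 29 higher (median 0.16, 9 at an unadjusted p under 0.05), with the calsyntenin genes Clstn3 at 0.28 (SE 0.06, adjusted p 0.0814) and Clstn1 at 0.31 (SE 0.09, adjusted p 0.142). Adgrl2, a latrophilin gene, had 1.29 (SE 0.35, adjusted p 0.128). Latrophilin-2 is enriched in CA1 pyramidal neurons, of whose markers 8 of 8 had higher means in KO-labelled libraries. The part of these neurons in the value of Adgrl2 was not tested.

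Other scaffold and signalling genes of the postsynaptic density had 24 of 31 higher (median 0.10, 8 at an unadjusted p under 0.05), with Arhgap44 at 0.30 (SE 0.07, adjusted p 0.101), Homer1 at 0.38 (SE 0.10, adjusted p 0.127) and the delta-catenin gene Ctnnd2 at 0.28 (SE 0.08, adjusted p 0.164). Glutamate receptor and further auxiliary subunits had 24 of 26 higher (median 0.18, 4 at an unadjusted p under 0.05), with the NMDA receptor genes Grin2d at 0.43 (SE 0.10, adjusted p 0.0846) and Grin1 at 0.28 (SE 0.09, adjusted p 0.173) and the kainate receptor gene Grik5 at 0.29 (SE 0.10, adjusted p 0.226). For the receptor subunits the share at an unadjusted p under 0.05 was close to the 14.4% of all genes tested. Of 11 inhibitory postsynapse genes, 9 were tested and 7 were higher (median 0.12, 2 at an unadjusted p under 0.05), with Igsf9b at 0.84 (SE 0.23, adjusted p 0.131) and the neuroligin-binding genes Mdga2 at 0.22 (SE 0.07, adjusted p 0.197) and Mdga1 at 0.45 (SE 0.21, adjusted p 0.372).

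With training, 2 genes known to be induced by neuronal activity had the smallest p-values among the other scaffold and signalling genes. Arc, which promotes AMPA receptor endocytosis, had a log2 fold change of 0.93 (SE 0.18, adjusted p 0.379) and Homer1, whose short isoform uncouples the Homer scaffold, 0.48 (SE 0.10, adjusted p 0.414). Their list had 27 of 31 genes higher, a median of 0.15 and 3 at an unadjusted p under 0.05, a share below the 11.2% of all genes tested. Presynaptic partners had 5 of 10 higher (median -0.0045), with Nrxn3 at 0.23 (SE 0.09, adjusted p 0.436) and Cbln1 at -0.65 (SE 0.34, adjusted p 0.457). Other adhesion genes had 26 of 29 higher (median 0.12), with Clstn3 at 0.18 (SE 0.06, adjusted p 0.415) and Slitrk1 at 0.20 (SE 0.09, adjusted p 0.445). Receptor subunits had 17 of 26 higher (median 0.11), with Gria3 at 0.24 (SE 0.08, adjusted p 0.414) and Grin1 at 0.20 (SE 0.09, adjusted p 0.441). Inhibitory genes had 8 of 9 higher (median 0.08), with Gphn, encoding gephyrin, at 0.12 (SE 0.06, adjusted p 0.463).

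The 41 genes were long by the median, but not all of them were. Their exons covered a median of 8352 bases (1453 to 24050), against 4372 for all annotated genes tested. Their spans had a median of 107 kb (6.02 to 1973), against 24.4 kb. Dlg2 was the longest, from 90476672 to 92449247 on chromosome 7 (mm10). They had a median of 4 annotated coding transcripts, against 2, and Dlg4 had the most, 17, and counts per gene sum over all of these. In the longest coding transcript, the tetramer TGCT and its 3 variants with C in place of either T or both, searched on the transcript strand with overlaps counted, together occurred at a median of 15.6 per kb in the 41 genes and 15.6 per kb in all genes. Muscleblind proteins bind RNA at such tetramers. The highest density was in Cacng8, 30.6 per kb, and the lowest in Akap5, 8.08 per kb, and Lrrtm4 had 9.47 per kb.

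Promoter windows, 250 bases before to 50 bases after a transcript start, came from RefSeq on GRCm38.p6 and matched 34 of the 41 genes with 56 windows. Their median GC content was 59.7%, against 60.3% over 14954 windows of 11737 tested genes, and the median ratio of observed to expected CpG was 0.573, against 0.718. The full cyclic AMP response element TGACGTCA, searched on both strands, was in 0 of 56 windows and 2.88% of all windows. The shorter TGACG, which the full element contains, or its complement CGTCA was in 8 windows, 14.3%, against 28.8% of all windows. TATAAA, searched only in the sequence of each window as given and not in its complement, was in 5.36% and 4.55%.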

How the data were processed

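Per the labels' protocols, total RNA was purified on columns, its polyadenylated fraction was selected and an NEBNext Ultra II kit was used for the libraries. Each of the 12 libraries was deposited by the authors as raw counts of reads for each gene symbol. The submitters' processing notes list HTSeq 0.9.1, TopHat2 2.1.1, Bowtie2 2.3.4.2, cutadapt 1.18 and DESeq2 1.18.1, with mm10 as genome build. Whether strand was used, and how reads shared between paralogs were counted, is not stated in any source that was read, so counts of overlapping genes and of close paralogs are uncertain. In 4 further tables the authors deposited, for each pairwise comparison, the mean signal (normalized count) of a gene, its log2 fold change and SE, and raw and adjusted p-value, per the file headers. The mean signal in each table equalled, to within 0.005%, the mean that the counts of its 6 libraries give when scaled by median of ratios.

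Groups came from the labels. Replicate numbers were given in accession order, so they do not pair libraries. Animal numbers fall into 2 series of 8 and 4 libraries. Within the first, all house controls have lower numbers than all trained mice. No files of a group were identical. The analysis used edgeR 4.0.16 under R 4.3.3: filterByExpr (minimum count 10, minimum total 15) kept 15622 genes, libraries were scaled by TMM, and 1 robust quasi-likelihood model with 4 group means was fitted to 12 libraries with 8 residual degrees of freedom. Its 7 contrasts set KO over WT in each treatment and on average, trained over house control in each genotype and on average, and gave the interaction. Adjustment was by the Benjamini-Hochberg method across the 15622 genes, and 0.05 was the threshold. The test was also run on simulated counts in which each gene varied independently. That run did not cover variation shared by many genes or uneven tissue content of the libraries. Standard errors are those implied by the F statistic. CPM per kb divides by the union of exons in GENCODE vM21 on the same build. Deviations use log2 CPM with a prior count of 2. Alternatives were a Wald test in DESeq2 1.42.0, scaling by median of ratios, testing without the low-count filter, a fit of the compared libraries alone, the animal-number series as a covariate or its first series alone, and leaving out single libraries, the second KO library of both treatments, or the 3 house controls rich in choroid plexus or thalamus transcripts.

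The 41 genes, the role, pathway and marker lists and the alternatives were chosen with earlier results of these data known. Every one of the 41 is named at least once; per contrast, those with the smallest p were described (8 for the mean genotype effect, 5 for each genotype comparison and the mean training effect, 4 for each other contrast), with the 5 highest and 5 lowest by CPM per kb, Mbnl2, and up to 3 (genotype) or 2 (training) genes per pathway list. Iqsec1 was also described because its house control groups did not overlap, and Lrrtm3 and Dlg1 for their spread, after their values were seen. The result of 1 gene named by this rule is not reported here.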

Additional observations from a re-analysis of the deposited data

How the results depend on the processing

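No paired analysis was possible because the replicate numbers follow accession order and the animal numbers pair no libraries. By edgeR, 0 of the 41 genes passed the adjusted threshold in any of the 7 contrasts, and the count changed under 3 alternatives, all in the mean genotype effect: DESeq2 called 4 genes higher, and the animal-number series as a covariate left 1, Akap5 (adjusted p 0.0465). Leaving out single libraries gave 0 to 2 calls, with Dlg2 (adjusted p 0.0423) and Neto1 (0.0449) called without WT house control 1. Without the 3 house controls rich in choroid plexus or thalamus transcripts, median log2 fold changes were -0.045 for KO over WT in house controls, -0.085 for trained over house control in WT mice and 0.18 for the interaction, where Nlgn1 (0.082), Lrrc7 (0.032) and Nlgn3 (0.080) changed sign. Leaving out single libraries, these medians ran from 0.12 to 0.42, 0.12 to 0.44 and -0.31 to 0.0090. The cause of these shifts was not tested. For the genes chosen by their smallest p in a contrast, recomputed values kept their direction and side of the threshold 673 times, passed it in 7 and changed sign in 3. None of these genes passed the threshold in the main fit. A library left out of a group not compared acts mainly through the filter, the scaling and the shared estimate of spread. Many of these values could therefore hardly change, and the tally does not measure stability. Outside this tally, the mean genotype effects of Lrrtm3 (-0.43) and Dlg1 (-0.16) also changed sign without the second KO-labelled library of both treatments. With 3 libraries a group, the median standard error of a pairwise log2 fold change of the 41 genes was 0.20. It was 0.14 for the mean effects. Differences of the size of the medians cannot be resolved gene by gene. Nor are the 41 genes 41 separate observations, since in many libraries most lay on the same side of their own mean. The pooled within-group SD of their average deviation was 0.199, and the pairwise medians ran from 0.10 to 0.22.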
